A study of Mus musculus with 16 samples.

Results

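The comparison described here set 4 mice labelled BK deficient against 4 wild type littermates, all sampled after 4 h of enforced waking. It used 8 of the 16 libraries of the series, one per mouse, written KO_SD 1 to 4 and WT_SD 1 to 4. Genes were kept where the normalized count, the authors' count divided by a factor per library, reached 10 in at least 4 of the 8 libraries. That rule kept 14280 of 22880 gene identifiers, of which 14269 are annotated as protein coding. Of the 8600 identifiers not tested, 4934 were at 0 in all 8 libraries.

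All mice were F1 animals, C57Bl6/J x Sv129, and total RNA of brain cortex was sequenced on a HiSeq2500. The KO_SD and WT_SD mice were kept awake by gentle handling from light onset and sampled at zeitgeber time 4. Mice of both genotypes that were left alone over the same hours, KO_BL and WT_BL with 4 mice each, serve as a second, separate genotype comparison that shares no library with the first. Animals lived 2 to a cage, and the labels do not say which shared a cage or a litter. Neither the knockout allele nor the sex or age of the mice is stated in the labels.

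BK channels are potassium channels that open when a cell is depolarized and calcium enters, so they shorten action potentials and limit transmitter release and firing. The pore is a tetramer of the Kcnma1 product. Beta subunits, encoded by Kcnmb1 to Kcnmb4, and gamma subunits, encoded by Lrrc26, Lrrc38, Lrrc52 and Lrrc55, change how the pore responds to voltage and calcium. In neurons Kcnmb4 is the main beta subunit gene. Prolonged waking is known to raise activity-dependent genes and chaperone genes in the rodent cortex, and the question here is whether BK deficient cortex differs from wild type cortex at the end of the same waking period.

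No gene passed the test. At an adjusted p below 0.05 (limma with Benjamini-Hochberg adjustment), 0 of 14280 genes were called, or 0.0%, and the lowest adjusted p was 0.9998. Without adjustment 232 genes, or 1.62%, had a limma p below 0.05, of which 84 (0.588%) had the higher mean in KO_SD and 148 (1.04%) the lower mean. With edgeR on recovered reads 0 genes were called and 231 had an unadjusted p below 0.05, and with DESeq2 the counts were 0 and 258. The 4 libraries of one group lay entirely above the 4 of the other at 193 genes, or 1.35%, with 99 (0.693%) higher and 94 (0.658%) lower in KO_SD. Over all tested genes 7035, or 49.3%, had the higher mean in KO_SD. Genes named below are therefore described by their values, many with a standard error and some only by a range, and none of them is a call in this comparison. Where a gene is said to have p below 0.05, that is the unadjusted limma p. In bulk tissue fewer cells of a type and less RNA per cell cannot be told apart, at any gene below.

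The precision of the comparison sets what such a result covers. The 95% interval of the log2 difference lay within a 1.5-fold change in either direction for 9595 genes (67.2%) and within a 2-fold change for 13139 genes (92.0%). The median standard error was 0.17 on the log2 scale. An estimated difference beyond 2-fold was seen at 35 genes, 8 higher and 27 lower in KO_SD, and 34 of these had a mean level below the median of tested genes, 494.2 normalized counts. The authors' deposited table gave the same outcome for this pair of groups, with 0 of 14461 genes at a false discovery rate below 0.05 and a smallest false discovery rate of 0.8225. The authors' deposited table lists 259 genes with an unadjusted p below 0.05, and 199 of those were below 0.05 here as well.

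**Figure D1:**
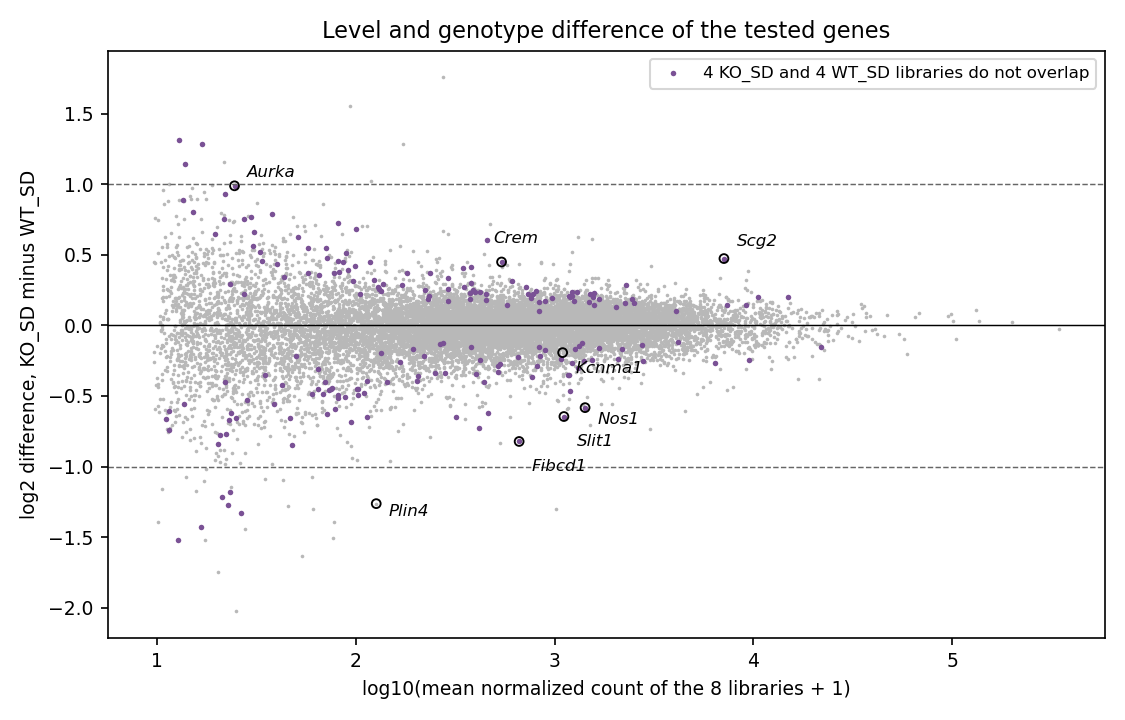
Mean normalized count of the 8 libraries (log10 scale) against the log2 difference between KO_SD and WT_SD for the 14280 tested genes. Purple points mark the 193 genes whose groups of 4 do not overlap, dashed lines mark a 2-fold difference, and the 35 genes outside those lines are almost all of low level.

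The KO_SD libraries differed more among themselves than the WT_SD libraries did. The median over genes of the standard deviation of the log2 value was 0.28 in KO_SD and 0.17 in WT_SD, against 0.18 in KO_BL and 0.15 in WT_BL, and it was larger in KO_SD than in WT_SD at 11371 genes (79.6%). The mean log2 distance between 2 libraries of a group was 0.54 in KO_SD and 0.391 in WT_SD (exact permutation test over 70 splits, two-sided p = 0.371, with 0.0286 the smallest p that 4 against 4 allows). KO_SD 1 and KO_SD 4 were the farthest apart, at 0.734, while KO_SD 2 and KO_SD 3 were 0.314 apart, inside the range of 0.313 to 0.447 found among WT_SD libraries. On the first principal component, which held 41.3% of the variance, KO_SD 1 scored -43.9 and KO_SD 4 scored 42.0, and the other 6 libraries lay between -16.0 and 19.6. KO_SD 1 held less of the transcripts of the shortest quintile of genes (up to 1220 bases, median log2 deviation from the mean of 8 libraries of -0.31) and more of the longest quintile (from 3340 bases, 0.23). KO_SD 4 showed the opposite, with 0.33 and -0.23. KO_SD 1 was also low in the quintile of genes with the highest GC content, from 56.3%, with a median deviation of -0.43, and high in the lowest quintile, up to 45.3%, at 0.28. The other libraries lay between -0.15 (WT_SD 1) and 0.24 (WT_SD 2) in the highest quintile. The genotype difference itself followed GC content, with a Spearman correlation of -0.373 across 14280 genes, which are not independent. Its median was 0.06 in the lowest and -0.10 in the highest GC quintile, and -0.05 and 0.09 without KO_SD 1 and KO_SD 4. The part of GC content in the gene differences below was not tested.

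Depth and mitochondrial content overlapped between genotypes. Recovered reads ran from 15.9 to 30.5 M in KO_SD and from 14.3 to 25.5 M in WT_SD (exact permutation p = 0.914). Mitochondrial transcripts took 5.23% to 7.54% of the reads in KO_SD and 5.58% to 6.88% in WT_SD (exact permutation p = 0.886), and KO_SD 4 had the largest share of mitochondrial ribosomal RNA, 1.89%, where the WT_SD libraries ran from 0.906% to 1.23%. All 19 listed cortical layer markers and all 14 listed neuronal genes passed the filter, with a median log2 difference of 0.00 and 0.06. Because KO_SD 1 and KO_SD 4 stand apart, values of KO_SD 2 and KO_SD 3 against WT_SD are given beside many of the results below. That smaller comparison called 0 genes and had an unadjusted p below 0.05 at 596 genes, or 4.17%.

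**Figure D2:**
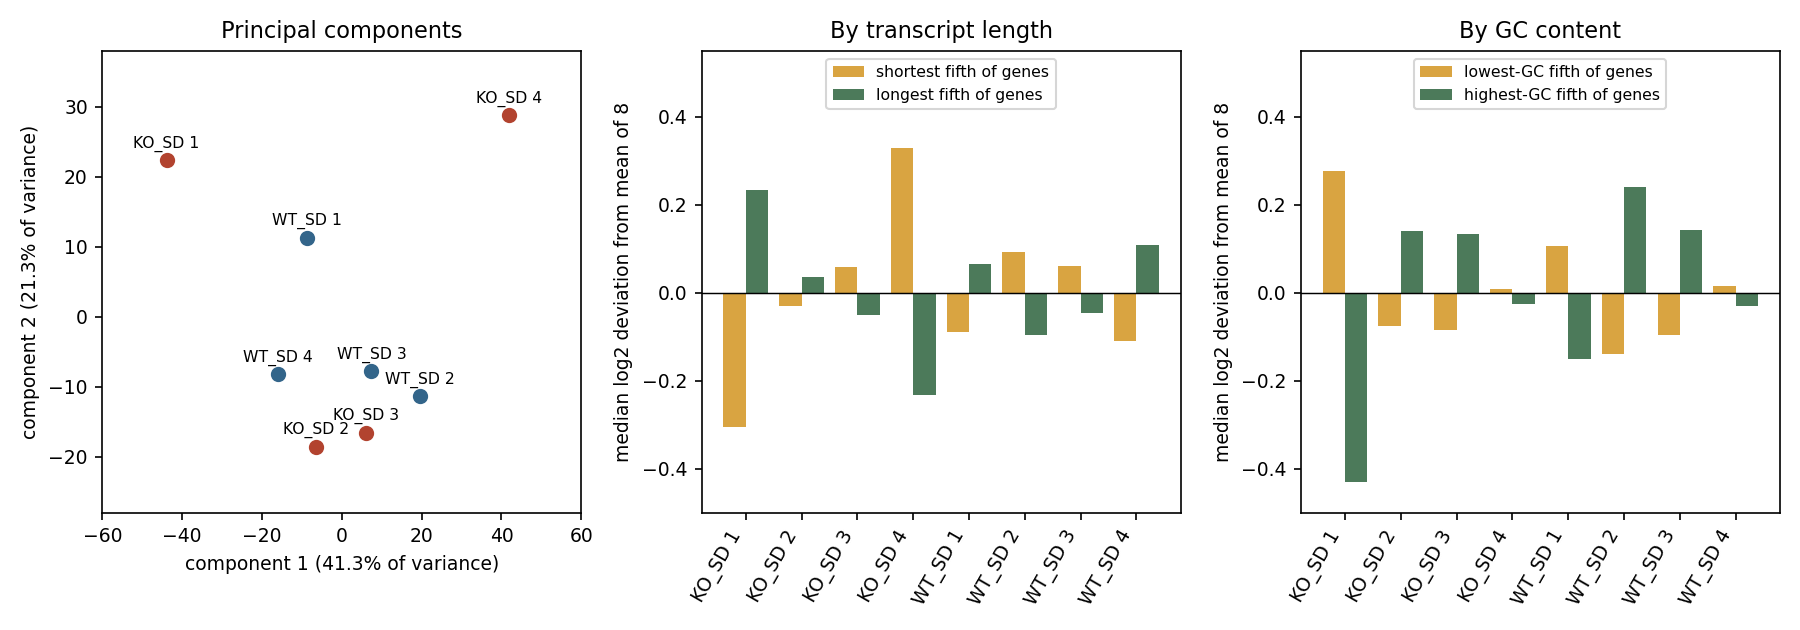
Scores of the 8 libraries on the first and second principal components (left), and the median log2 deviation of each library from the mean of 8 for the shortest and longest quintile of genes (middle) and the quintiles of lowest and highest GC content (right). KO_SD 1 and KO_SD 4 lie at opposite ends of component 1, at -43.9 and 42.0, and are opposite in the length panel.

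None of the 6 tested BK channel genes had p below 0.05. Kcnma1 (ENSMUSG00000063142, chromosome 14, 23289431 to 24014491, minus strand, GRCm38) read 1999, 1112, 801 and 431.6 normalized counts in KO_SD 1 to 4, and 1107, 822.3, 911.8 and 1583 in WT_SD 1 to 4. The KO_SD values span the whole WT_SD range and go past it at both ends, with KO_SD 1 the highest of the 8 and KO_SD 4 the lowest. The log2 difference was -0.19 ± 0.39 (SE), with a 95% interval from -1.06 to 0.67. Leaving out KO_SD 4 turned the direction, to 0.18. Undisturbed mice had means of 1806 ± 350 in KO_BL and 1534 ± 355 in WT_BL (SD, n = 4 each). Since the deleted part of Kcnma1 is unknown here, gene-level counts do not check the genotype labels, and every genotype direction rests on those labels.

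Among the beta subunit genes, Kcnmb4 was at 558.5, 937.5, 1049 and 992.6 normalized counts in KO_SD 1 to 4 and at 723.4, 1068, 909.9 and 758.4 in WT_SD 1 to 4. The 2 groups overlap over most of their range, and the log2 difference was 0.01 ± 0.21 (SE) with an interval from -0.45 to 0.47. Kcnmb2, whose product inactivates the channel, had a log2 difference of -0.01 ± 0.22 (SE), and Kcnmb1, the smooth muscle subunit gene, one of -0.15 ± 0.27 (SE) at 11.1 to 19.4 normalized counts. In undisturbed mice Kcnmb1 had a log2 difference of -0.96, and it was among the genes with p below 0.05 there. It read 6.07 to 9.36 normalized counts in KO_BL, all under the filter level, and 13.97 to 19.66 in WT_BL. Kcnmb1 was therefore tested there through WT_BL alone, at low counts. For Kcnmb4 and for Kcnmb2 the direction turned when single libraries were left out.

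The estimates of the gamma subunit genes were above 0. Lrrc55, a gamma subunit gene expressed in brain, was at 747.4, 603.1, 528 and 383.5 normalized counts in KO_SD 1 to 4 and at 354.4, 419.4, 461.9 and 583.3 in WT_SD 1 to 4. Its log2 difference of 0.30 ± 0.21 (SE) came with overlapping groups, since KO_SD 4 lay below 3 of the 4 WT_SD libraries. Lrrc38 read 38.2 to 60.4 normalized counts in KO_SD and 30.6 to 50.4 in WT_SD, a log2 difference of 0.33 ± 0.23 (SE), and 0.56 without KO_SD 1 and KO_SD 4. Kcnmb3 and Lrrc52 stayed below the filter, and Lrrc26 was at 0 in all 8 libraries.

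Per length, in the authors' FPKM values (fragments scaled to transcript length and library size), Kcnmb4 was the most abundant of these transcripts at 45.0 ± 11.6 in KO_SD and 44.2 ± 7.99 in WT_SD (SD, n = 4 each). Kcnma1 followed at 15.0 ± 9.05 and 15.4 ± 4.52, then Lrrc55 at 11.3 ± 2.97 and 9.16 ± 1.81. Kcnmb2 was near 1.65 ± 0.267 and 1.70 ± 0.429, Lrrc38 at 1.11 ± 0.236 and 0.889 ± 0.191, and Kcnmb1 at 0.163 ± 0.0194 and 0.186 ± 0.042. The order of the means was the same in both genotypes. The Kcnma1 and Lrrc55 values overlapped in both groups, while those of Kcnmb4 and Kcnma1, and those of Kcnmb2 and Lrrc38, did not, with KO_SD libraries as close as 27.9 for Kcnmb4 and 27.2 for Kcnma1.

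**Figure D3:**
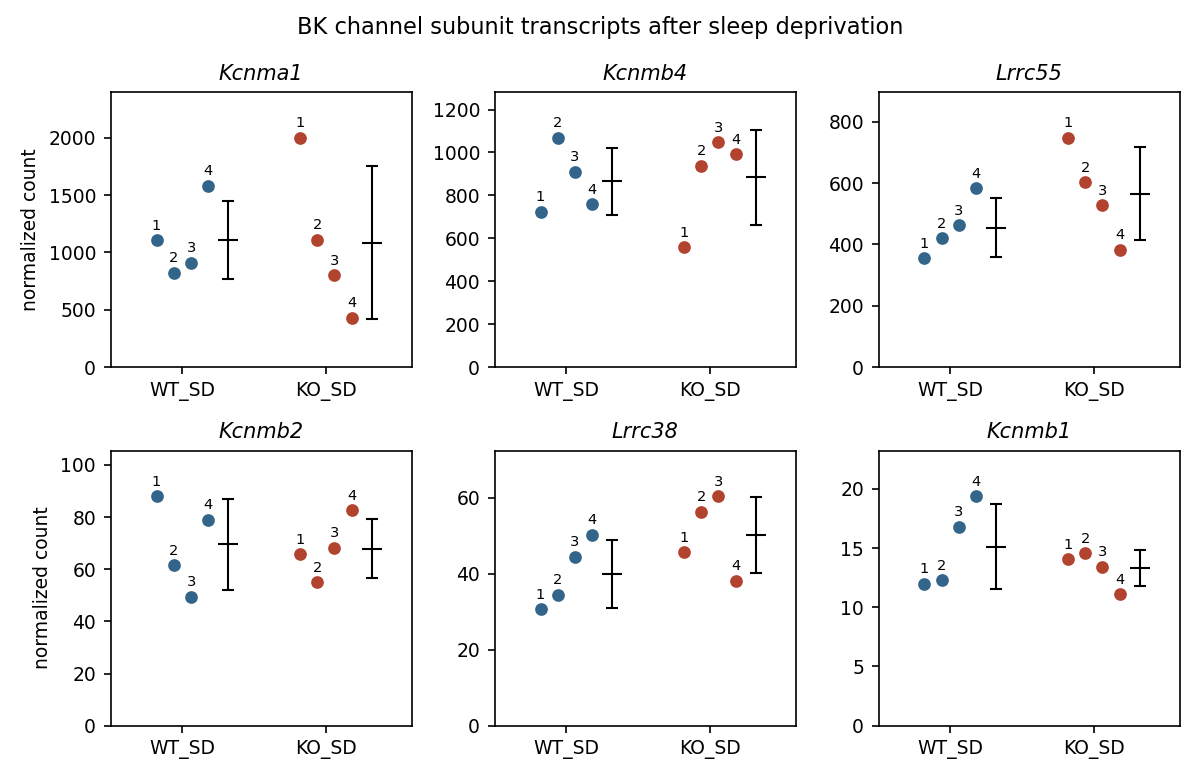
Normalized counts of the 6 tested BK channel subunit genes in each of the 8 libraries (points, numbered by replicate), with mean and SD to the right of each group. For all 6 genes the KO_SD and WT_SD values overlap, and Kcnma1 runs from 431.6 in KO_SD 4 to 1999 in KO_SD 1.

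Genes close to Kcnma1 on chromosome 14 were looked at separately. Within 5 Mb of the gene 52 genes were tested, Kcnma1 itself included, 32 with the higher mean in KO_SD and a median log2 difference of 0.03. Unadjusted p below 0.05 was found at 3 of them, where 1.62% of all tested genes had it. Plau, which encodes the urokinase plasminogen activator, ran from 88.8 to 113.8 normalized counts in KO_SD and from 65.3 to 89.9 in WT_SD (log2 difference 0.37 ± 0.17 SE). Zfp503, a transcriptional repressor gene, had a log2 difference of -0.78 ± 0.35 (SE), with overlapping groups and its lowest value, 15.25, in KO_SD 1. Dlg5, a membrane-associated guanylate kinase gene, had one of -0.37 ± 0.13 (SE). In undisturbed mice the log2 differences of Plau, Zfp503 and Dlg5 were -0.20, -0.11 and 0.00.

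The genes with the smallest unadjusted p among those above the median level, with groups that did not overlap, are given next. There were 67 candidates without placeholder names, 35 higher and 32 lower in KO_SD, and the 12 of each direction with the smallest p are named. They were picked for not overlapping, so that property supports nothing.

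On the higher side, Crem led. Crem encodes transcription factors that bind cyclic AMP response elements, among them the inducible repressor ICER, and belongs to the activity-dependent genes. Its normalized counts were 721.6, 533.4, 576.2 and 667.1 in KO_SD 1 to 4 and 487.6, 440.7, 453 and 436.9 in WT_SD 1 to 4. The lowest KO_SD library lay above the highest WT_SD library, and the log2 difference was 0.45 ± 0.13 (SE, interval 0.17 to 0.73). Without KO_SD 1 and KO_SD 4 it was 0.29. The undisturbed groups had means of 332 ± 66.7 in KO_BL and 278.9 ± 15.6 in WT_BL (SD, n = 4 each).

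Scg2, which encodes secretogranin II, a protein of dense-core vesicles, was at 10300, 7596, 7263 and 7963 normalized counts in KO_SD 1 to 4 and at 5608, 5723, 6882 and 5519 in WT_SD 1 to 4. The log2 difference was 0.47 ± 0.13 (SE). In undisturbed mice it was 0.42, with p below 0.05 there too. The KO_SD libraries all lay above the WT_SD ones, with KO_SD 1 the highest. Srxn1, which encodes sulfiredoxin, a repair enzyme of oxidized peroxiredoxins, also had p below 0.05 in both conditions. It read 2472, 2368, 2513 and 2730 in KO_SD 1 to 4 and 1986, 1973, 2100 and 2224 in WT_SD 1 to 4, a log2 difference of 0.28 ± 0.10 (SE), with 0.20 in undisturbed mice. Coch, which encodes the extracellular matrix protein cochlin, was tightly grouped at 651 to 698.7 in KO_SD and 489 to 564.7 in WT_SD (log2 difference 0.31 ± 0.10 SE), while in undisturbed mice its difference was -0.19.

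The other higher genes had log2 differences from 0.20 to 0.27. Among them only Ptp4a1 had an unadjusted limma p below 0.05, at 0.0432. The rest had an unadjusted limma p from 0.0502 (Kcnip4) to 0.0757 (Nrsn1), and their intervals included no difference. Ptp4a1 encodes a small tyrosine phosphatase, and its difference of 0.27 was 0.13 without KO_SD 1 and KO_SD 4. Kcnip4 encodes an accessory protein of Kv4 potassium channels and read 1539 to 1740 in KO_SD and 1323 to 1450 in WT_SD, with a difference of 0.22 after sleep deprivation and 0.21 in undisturbed mice. Tiam2 encodes an exchange factor for Rac, Uap1 an enzyme that makes UDP-N-acetylglucosamine, and Elovl4 an elongase of very long chain fatty acids. Dnajb11 is a co-chaperone gene of the endoplasmic reticulum and Dnajb6 one of the cytosol, and Nrsn1 encodes a neuronal vesicle membrane protein. In Elovl4, Dnajb11, Dnajb6 and Nrsn1 the highest KO_SD library was KO_SD 1 or KO_SD 4, and without that pair the differences were 0.09, 0.11, 0.15 and 0.09.

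On the lower side, Nos1 and Slit1 had the smallest p. Nos1, which encodes neuronal nitric oxide synthase and marks a class of cortical interneurons, some of them active in sleep, was at 1305, 1040, 1143 and 1044 normalized counts in KO_SD 1 to 4 and at 1924, 1987, 1559 and 1368 in WT_SD 1 to 4. The groups did not overlap, though KO_SD 1 and WT_SD 4 lay close, and the log2 difference was -0.58 ± 0.15 (SE, interval -0.90 to -0.26). Without KO_SD 1 and KO_SD 4 it was -0.63. In undisturbed mice the means were 1601 ± 150 in KO_BL and 1570 ± 411 in WT_BL (SD, n = 4 each), a log2 difference of 0.06. The interaction, the difference after sleep deprivation minus that in undisturbed mice, was -0.64.

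Slit1, an axon guidance ligand gene, read 1003, 941.3, 899.5 and 639.9 in KO_SD 1 to 4 and 1523, 1303, 1468 and 1119 in WT_SD 1 to 4. Its log2 difference was -0.65 ± 0.16 (SE), and -0.13 in undisturbed mice. Adgrg1, an adhesion G protein-coupled receptor gene, was narrow in the wild type, at 1304, 1372, 1329 and 1298, and lay at 934, 1022, 1025 and 1178 in KO_SD 1 to 4. That is a log2 difference of -0.35 ± 0.11 (SE), against 0.18 in undisturbed mice. Elk1, an ETS transcription factor gene on the X chromosome, was narrow in both groups, at 1272, 1269, 1256 and 1348 in KO_SD and 1507, 1539, 1540 and 1539 in WT_SD. Its log2 difference of -0.25 ± 0.10 (SE) ranged from -0.28 to -0.24 over the alternative settings.

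Fibcd1, a marker of hippocampal pyramidal cells that encodes a receptor for acetylated sugars, was at 565.6, 383.9, 380.4 and 558.6 in KO_SD 1 to 4 and at 803.4, 605.7, 1253 and 742.1 in WT_SD 1 to 4. The log2 difference was -0.82 ± 0.23 (SE), the same in size as in undisturbed mice, -0.82, where KO_BL ran from 195.6 to 565.7 and WT_BL from 233.2 to 1103. The remaining 7 genes had log2 differences from -0.47 to -0.24. Sipa1l3 encodes a Rap regulator and had its lowest value, 733.6, in KO_SD 4, and its difference of -0.47 was -0.30 without KO_SD 1 and KO_SD 4. Ksr1 encodes a scaffold of the MAP kinase cascade, Raver2 an RNA-binding protein, Jph4 a junctophilin that holds the endoplasmic reticulum to the plasma membrane, Chd3 a chromatin remodeler and Dclk2 a doublecortin-like kinase. Jph4 had -0.26 at both conditions.

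**Figure D4:**
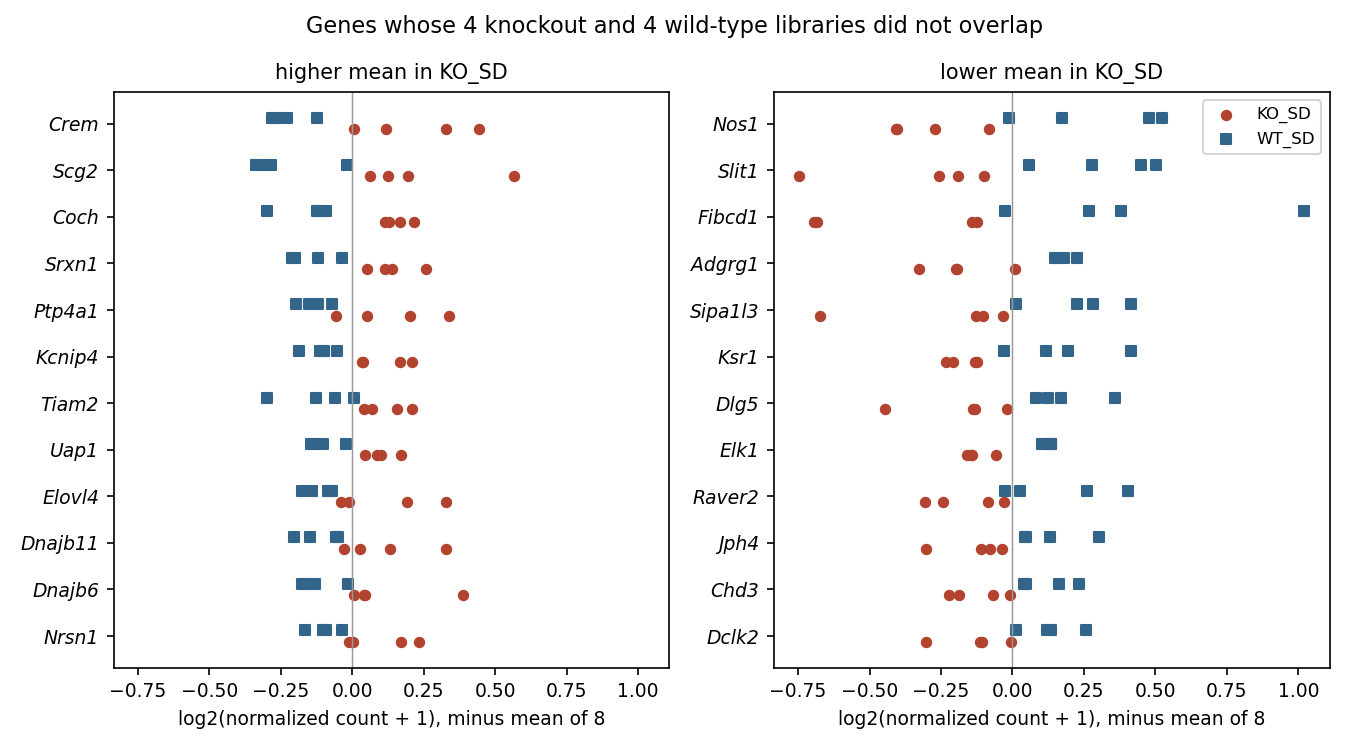
Log2(normalized count + 1) of each library minus the mean of the 8 libraries for the 12 genes with the smallest p on each side (circles KO_SD, squares WT_SD). The genes were chosen for groups that do not overlap. Scg2 reaches highest in KO_SD 1 and Fibcd1 in WT_SD 3.

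Ion channel and receptor genes are given by family, and their counts can be read against the 1.62% of all tested genes with p below 0.05 and the 49.3% with the higher mean in KO_SD. Of 41 tested voltage-gated potassium channel genes, 20 had the higher mean in KO_SD, the median log2 difference was -0.03 (0.14 without KO_SD 4), and 1 had p below 0.05. That gene was Kcng2, a modifier subunit, at 34.03, 41.18, 27.97 and 55.49 in KO_SD 1 to 4 and 57.3, 60.7, 95.9 and 45.7 in WT_SD 1 to 4, a log2 difference of -0.69 ± 0.28 (SE). The groups overlapped, since KO_SD 4 lay above WT_SD 4. Kcna2, an axonal potassium channel gene, was the gene with the heaviest weight at the KO_SD 1 end of the first component, at 1054, 418.1, 228.2 and 70.3 in KO_SD 1 to 4 and 359.7, 186.3, 260.1 and 915.6 in WT_SD 1 to 4. The groups overlapped fully, and the log2 difference was -0.29 ± 0.72 (SE).

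Small-conductance channels are, like BK channels, opened by calcium. Kcnn2 had a log2 difference of -0.06 ± 0.12 (SE) and Kcnn3 one of -0.20 ± 0.18 (SE), and the 6 tested genes of a wider list, with Kcnn1, the sodium-activated Kcnt1 and Kcnt2, and the BK-related Kcnu1, had a median of 0.00. Of 21 inward rectifier and leak channel genes 10 were higher, with a median of -0.04 (0.04 without KO_SD 4). In this list Kcnk3 had a log2 difference of 0.22, and 0.43 without KO_SD 1 and KO_SD 4. Kcnf1 and Kcnv1, of the voltage-gated list, had 0.20 and 0.23, and 0.18 and 0.14 without that pair. On the lower side of the inward rectifier and leak list, Kcnj11 and Kcnk9 had -0.29 ± 0.24 and -0.60 ± 0.56 (SE), and 0.02 and -0.15 without that pair. With quantile scaling the near-zero medians of the BK, other calcium-activated, and inward rectifier and leak channel lists took the other sign, as did those of the immediate early genes and cortical layer markers.

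Calcium channel genes had the lower mean in KO_SD at 14 of 16, with a median of -0.07. Their mean log2 deviation was 0.12, 0.15, -0.00 and -0.44 in KO_SD 1 to 4, so KO_SD 4 was the low library, and the median was 0.04 without it. Cacna1h, a T-type channel gene, was the 1 member with p below 0.05, at 583.2, 845.7, 857 and 623.9 in KO_SD and 851.3, 1083, 1160 and 804.9 in WT_SD. The groups overlapped in part, and the log2 difference was -0.43 ± 0.17 (SE), and -0.18 without KO_SD 1 and KO_SD 4. Cacna1b and Cacna1c, of the N and L types, had differences of -0.19 and -0.18, which became 0.03 and 0.04 without KO_SD 4.

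Sodium and HCN channel genes were lower at 10 of 13 (median -0.07, and 0.07 without KO_SD 4). Hcn4, which encodes a pacemaker channel, was low in all libraries and did not overlap, at 15.3, 19.6, 14.5 and 12.3 in KO_SD 1 to 4 and 26.7, 33.7, 20.8 and 27.1 in WT_SD 1 to 4. The log2 difference was -0.77 ± 0.25 (SE), and that of undisturbed mice had the other sign, 0.80. The interaction of Hcn4 was -1.57 ± 0.46 (SE). Scn3b had a difference of -0.25 ± 0.19 (SE), and -0.55 without KO_SD 1 and KO_SD 4. Genes of calcium stores, pumps and buffers had a median of -0.06 over 21, which turned to 0.06 without KO_SD 4. In that list the ryanodine receptor gene Ryr3 was at -0.35 ± 0.23 (SE) and the calmodulin gene Calm2 at 0.13 ± 0.12 (SE), the latter at 0.00 without KO_SD 1 and KO_SD 4.

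Glutamate receptor genes were lower at 13 of 17 (median -0.09), and 0 had p below 0.05. Without KO_SD 4 their median turned to 0.02. Grid1 had -0.19 ± 0.10 (SE) and Gria1 -0.19 ± 0.15 (SE), the latter -0.37 without KO_SD 1 and KO_SD 4. GABA-A receptor genes were split, 6 of 12 higher. Gabrd, which encodes the delta subunit of extrasynaptic receptors, was at 938.7, 1211, 1269 and 1086 in KO_SD 1 to 4 and 750.1, 954.5, 929.6 and 1141 in WT_SD 1 to 4 (0.26 ± 0.15 SE, and -0.18 in undisturbed mice), and 0.41 without KO_SD 1 and KO_SD 4.

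Activity-dependent genes were evenly split. Of 44 tested immediate early genes 22 had the higher mean in KO_SD, with a median log2 difference of -0.01. Of these, 2 on the higher side, Crem and Ier5, and 1 on the lower side, Nr4a2, had p below 0.05. The share over all tested genes was 1.62%, and Crem was already picked above by its small p. Ier5 read 2179, 2031, 2124 and 1824 in KO_SD 1 to 4 and 1418, 1740, 1846 and 1741 in WT_SD 1 to 4 (0.28 ± 0.12 SE), with KO_SD 4 just under WT_SD 3. Nr4a2, an orphan nuclear receptor gene, read 1500, 850.1, 906.2 and 1620 in KO_SD and 1860, 1726, 1801 and 1326 in WT_SD (-0.51 ± 0.22 SE, overlapping through KO_SD 1, KO_SD 4 and WT_SD 4), and -0.92 without KO_SD 1 and KO_SD 4. The neurotrophin gene Bdnf read 1821, 1319, 1028 and 1342 in KO_SD and 1026, 1138, 1234 and 684 in WT_SD. The groups overlapped, and its log2 difference was 0.44 ± 0.21 (SE), with an interval from -0.03 to 0.90. It was 0.22 without KO_SD 1 and KO_SD 4, and 0.28 in undisturbed mice, with p below 0.05 there. Homer1 and Junb were named after their values were seen. Homer1, a synaptic scaffold gene known to be higher after waking, ran from 6946 to 16490 in KO_SD and from 7457 to 8271 in WT_SD, and Junb, a component of AP-1, had the lowest difference of the list, -0.65 ± 0.45 (SE).

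Most chaperone genes had the higher mean in KO_SD. Of 22 genes of the endoplasmic reticulum chaperone and unfolded protein response list 20 had the higher mean in KO_SD. Their median was 0.14 beside -0.00 over all genes, and 0 had p below 0.05, beside 1.62% of all tested genes. The mean log2 deviation over the list was 0.02, -0.08, 0.11 and 0.23 in KO_SD 1 to 4 and -0.06, -0.05, -0.06 and -0.11 in WT_SD 1 to 4, so KO_SD 2 fell within the WT_SD range and KO_SD 4 was the highest. Hspa5, which encodes BiP, read 10620, 7773, 9748 and 11760 in KO_SD and 8824, 8089, 8163 and 7729 in WT_SD (0.27 ± 0.13 SE). Its log2 difference in undisturbed mice was 0.25, with p below 0.05 there. Pdia3 and Xbp1 had 0.25 ± 0.12 and 0.24 ± 0.12 (SE). Without KO_SD 1 and KO_SD 4 the median was 0.09 and Hspa5 and Pdia3 were each at 0.09. In undisturbed mice 18 of 22 were higher, with a median of 0.07. For cytosolic heat shock proteins 19 of 22 were higher (median 0.13), but the median was -0.02 without KO_SD 1 and KO_SD 4. Hsph1 had 0.25 ± 0.12 (SE), 0.08 without that pair, and Hspb1 0.39 ± 0.24 (SE). Rbm3, a cold-inducible RNA-binding protein gene, had 0.27 ± 0.15 (SE) and 0.52 in undisturbed mice.

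Most glucocorticoid-responsive genes had the lower mean in KO_SD. Of 19 tested members 16 had the lower mean in KO_SD, the median was -0.21, and 2 had p below 0.05, beside 49.3% of all tested genes with the higher mean and 1.62% with p below 0.05. The mean log2 deviation of the list was -0.17, -0.11, -0.15 and -0.13 in KO_SD 1 to 4 and -0.09, -0.02, 0.37 and 0.30 in WT_SD 1 to 4. The KO_SD libraries were close together, and the 2 high libraries were WT_SD 3 and WT_SD 4. Plin4, which encodes a lipid droplet protein, read 51.6, 56.4, 63.8 and 94.9 in KO_SD and 99.9, 81.3, 222.5 and 333.9 in WT_SD, a log2 difference of -1.26 ± 0.41 (SE). In undisturbed mice it was 0.69, with 1 KO_BL library at 236.1 and the other 7 libraries between 11.5 and 28.0. Sult1a1, a sulfotransferase gene, had -0.58 ± 0.23 (SE) after sleep deprivation and 0.91 in undisturbed mice, with an interaction of -1.49. Fkbp5, a co-chaperone gene of the glucocorticoid receptor, had -0.32 ± 0.16 (SE), -0.52 without KO_SD 1 and KO_SD 4, and Ddit4, an inhibitor of mTOR signalling, -0.43 ± 0.22 (SE). The list's median in undisturbed mice was -0.02, and without KO_SD 1 and KO_SD 4 it was -0.23.

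Clock genes were split, 11 of 23 higher, with a median of -0.00. The nuclear receptor gene Nr1d1 read 1240, 1889, 1844 and 1168 in KO_SD and 1715, 2071, 1920 and 2194 in WT_SD (-0.39 ± 0.18 SE), and -0.08 without KO_SD 1 and KO_SD 4, its 2 low libraries. Cry1, a repressor of the clock, had 0.25 ± 0.12 (SE) with groups that did not overlap, and 0.13 without KO_SD 1 and KO_SD 4. Among 24 sterol and fatty acid synthesis genes 19 were higher, with a median of 0.09 (0.05 without WT_SD 3), and Insig1 had 0.23 ± 0.11 (SE). Ribosomal protein genes, which have short transcripts, were low in KO_SD 1 and high in KO_SD 4. Their mean log2 deviation was -0.60 in KO_SD 1 and 0.73 in KO_SD 4, and -0.24 to 0.21 in WT_SD, and the median of the 76 genes, 0.06, became 0.26 without KO_SD 1 and -0.18 without KO_SD 4. Rps24 read 4304, 4266, 5490 and 9856 in KO_SD 1 to 4 and 4219 to 5153 in WT_SD, and Rpl39 had its highest value, 1720, in KO_SD 4.

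**Figure D5:**
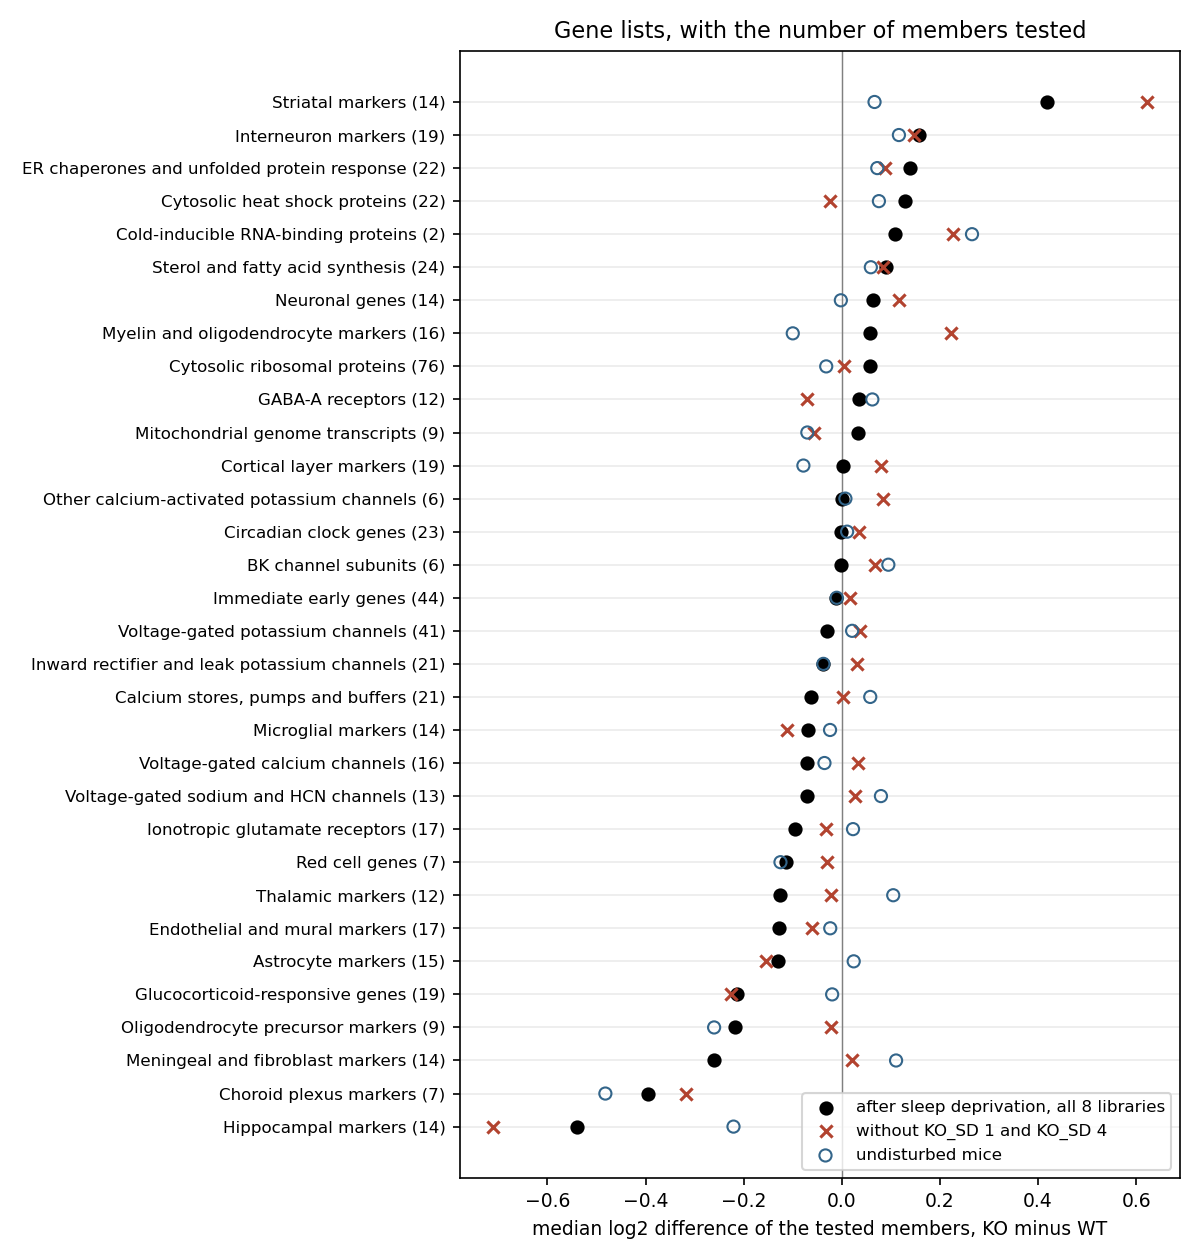
Median log2 difference between knockout and wild type over the tested members of each gene list, after sleep deprivation with all 8 libraries (filled), without KO_SD 1 and KO_SD 4 (crosses) and in undisturbed mice (open). The medians run from -0.54 for hippocampal markers to 0.42 for striatal markers, and no test was made over a list.

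Among lists with more than 1 tested gene, the striatal and hippocampal markers had the largest medians in size, while 12 thalamic markers had -0.13. Of 14 tested striatal markers 13 had the higher mean in KO_SD, with a median of 0.42, 0.62 without KO_SD 1 and KO_SD 4, and 0.07 in undisturbed mice. Leaving out KO_SD 3 brought the striatal median to 0.08. Their mean log2 deviation was -0.63, -0.59, 1.43 and 0.58 in KO_SD 1 to 4 and -0.31, -0.20, -0.56 and 0.27 in WT_SD 1 to 4, so KO_SD 3 was the high library and KO_SD 1 and 2 the low ones. The summed level ran from 7132 to 15934 normalized counts in KO_SD and from 5857 to 10475 in WT_SD. Penk, which encodes proenkephalin, read 697, 828.6, 2315 and 2813 in KO_SD and 854, 1522, 578.6 and 887.8 in WT_SD. Tac1 had 0.65 ± 0.33 (SE), Rarb 0.56 ± 0.32 and Scn4b 0.61 ± 0.46.

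Of 14 hippocampal markers 10 had the lower mean in KO_SD, with a median of -0.54, -0.71 without KO_SD 1 and KO_SD 4, and -0.22 in undisturbed mice. It was -0.30 without WT_SD 1 and -0.34 without WT_SD 3. The mean log2 deviation was -0.15, -0.44, -0.59 and 0.26 in KO_SD 1 to 4 and 0.80, -0.33, 0.87 and -0.42 in WT_SD 1 to 4, so WT_SD 1 and WT_SD 3 were the high libraries. The summed level ran from 7384 to 9561 in KO_SD and from 8250 to 13132 in WT_SD. The 4 members with p below 0.05, beside 1.62% of all tested genes, were all lower, Fibcd1 described above, Cabp7 (-0.53 ± 0.21 SE), Wfs1 (-0.44 ± 0.19) and Cpne7 (-0.71 ± 0.32). Cpne7 read 1031, 983.8, 841.3 and 1563 in KO_SD 1 to 4 and 2089, 2369, 2277 and 844.4 in WT_SD 1 to 4. KO_SD 4 lay between the other knockout libraries and the other wild type ones, and WT_SD 4 at the level of the knockout libraries. The part of these markers in the other differences was not tested. With both list scores in the model as covariates 0 genes were called and 148 had an unadjusted p below 0.05.

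Choroid plexus and meningeal genes varied from library to library. Of 7 tested choroid plexus markers 5 had the lower mean in KO_SD, with a median of -0.39. That median was -0.03 without KO_SD 1 and -0.04 without WT_SD 4. Of 14 meningeal and fibroblast markers 10 had the lower mean (median -0.26, 0.02 without KO_SD 1 and KO_SD 4, and 0.11 in undisturbed mice). Of these 14 markers, 2 had p below 0.05, beside 1.62% of all tested genes. Ttr, the transthyretin gene of the choroid plexus, was at 62.2, 434.6, 356.9 and 537.6 in KO_SD 1 to 4 and at 880.7, 228.2, 177 and 5430 in WT_SD 1 to 4. The fibroblast gene Dcn read 266.4, 304.1, 307.7 and 663.4 in KO_SD and 794.1, 883.9, 639.9 and 372.6 in WT_SD (-0.83 ± 0.32 SE), again with KO_SD 4 and WT_SD 4 on the far side of their groups. Slc13a4 had -0.95 ± 0.38 (SE) and the collagen gene Col3a1 0.33 ± 0.20 (SE).

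Astrocyte genes were mostly lower in KO_SD. Of 15 tested 14 had the lower mean in KO_SD, with a median of -0.13, and 0 had p below 0.05, beside 1.62% of all tested genes. The mean log2 deviation of the list was -0.12 to -0.02 in KO_SD and -0.00 to 0.12 in WT_SD, so the groups were separated by a narrow gap, and in undisturbed mice the median was 0.02 with 11 of 15 higher. Gfap, the intermediate filament gene of astrocytes, read 2137, 1946, 1963 and 3318 in KO_SD 1 to 4 and 3663, 3067, 3336 and 2238 in WT_SD 1 to 4 (-0.41 ± 0.20 SE, and -0.63 without KO_SD 1 and KO_SD 4). KO_SD 4 and WT_SD 4 once more lay with the other genotype. At Slit1 and Elk1, which were picked for groups that do not overlap, each of these libraries lay with its own group. The share of genes with either pattern was not counted. Whether the labels of single animals are right cannot be told from these counts, and that limit holds for every genotype value here. Gja1 and Fgfr3 had -0.21 ± 0.12 and -0.21 ± 0.11 (SE).

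Interneuron markers were higher at 13 of 19 (median 0.16, and 0.02 without WT_SD 1), and 3 had p below 0.05, beside 1.62% of all tested genes. The peptide gene Crh read 177.2, 167.2, 127.5 and 167.7 in KO_SD and 95.9, 114.9, 156.3 and 103 in WT_SD (0.46 ± 0.19 SE). Vip, another peptide gene, had 0.32 ± 0.14 (SE), and 0.15 without KO_SD 1 and KO_SD 4, while Nos1 was on the lower side. Pvalb, the marker of fast-spiking cells, had 0.38 ± 0.19 (SE). Nefh, a neurofilament gene of the neuronal list, had 0.28 ± 0.14 (SE).

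Vascular and other glial lists had smaller or less stable medians. Of 17 endothelial and mural markers 14 were lower (median -0.13, and -0.05 without KO_SD 4). Mfsd2a, the lipid transporter gene of the blood-brain barrier, did not overlap, at 303.9, 397.2, 393.8 and 425.4 in KO_SD 1 to 4 and 503.6, 430.1, 498.4 and 573.2 in WT_SD 1 to 4 (-0.40 ± 0.14 SE), and had 0.19 in undisturbed mice. The smooth muscle gene Tagln had 0.38 ± 0.19 (SE). Microglial markers were lower at 12 of 14 (median -0.07, and 0.03 without KO_SD 1, with Cx3cr1 at -0.17 ± 0.13 SE), and precursor markers at 7 of 9 (median -0.22, and -0.02 without KO_SD 1 and KO_SD 4), with Pdgfra at -0.26 ± 0.17 (SE). Myelin markers were higher at 11 of 16 (median 0.06, 0.22 without KO_SD 1 and KO_SD 4, and -0.04 without WT_SD 1), with Opalin at 0.35 ± 0.19 (SE). Red cell genes had a median of -0.11 over 7, which turned to 0.12 without KO_SD 1, with Hba-a1 at 88 to 457.6 in KO_SD and 211.8 to 494.1 in WT_SD.

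The same genotype comparison in undisturbed mice called 2 of 14341 genes, or 0.0139%, and 395 (2.75%) had an unadjusted p below 0.05. Stbd1, which encodes a glycogen-binding protein, was one, with 97.96, 94.1, 206.5 and 100.1 in KO_BL 1 to 4 and 29.5, 32.2, 29.6 and 25.3 in WT_BL 1 to 4 (log2 difference 1.98 ± 0.25 SE, limma adjusted p = 0.0318). After sleep deprivation the values were 79.8, 79.8, 135.4 and 44.4 in KO_SD 1 to 4 and 91.9, 53.4, 26.7 and 25.6 in WT_SD 1 to 4. The groups overlapped through WT_SD 1 and KO_SD 4, and the log2 difference was 0.86 ± 0.43 (SE). The other gene, the predicted pseudogene Gm6768, was at 54.2 to 72.1 in WT_BL and at 0 to 4.45 in KO_BL (limma adjusted p = 0.0135). All its KO_BL values were under the filter level, so Gm6768 was tested through WT_BL alone. In the sleep-deprived mice it stayed below the filter, at 0 to 4.48 in KO_SD and 0.775 to 5.33 in WT_SD.

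Across the 14161 genes tested in both conditions the log2 differences had a Spearman correlation of 0.258, where genes are not independent replicates, and 61.3% had the same sign. Unadjusted p below 0.05 in both conditions was found at 20 genes, which are 8.85% of those below it after sleep deprivation and 5.17% of those below it in undisturbed mice, and 15 of the 20 had the same direction. Scg2, Srxn1, Jph4 and Cabp7 were among them. Of the others, chosen after their values were seen, Adcyap1, which encodes the neuropeptide PACAP, read 605.5, 611.3, 479.9 and 478.4 in KO_SD 1 to 4 and 387.7, 411.2, 405.5 and 245.6 in WT_SD 1 to 4. Its log2 difference was 0.60 ± 0.18 (SE), and 0.30 in undisturbed mice. Cbln2, a synaptic organizer gene, had 0.52 ± 0.18 (SE) and 0.39, Prelp, an extracellular matrix gene, -0.73 ± 0.17 (SE) and -0.49, and Ddn, a dendritic protein gene, -0.38 ± 0.13 (SE) and -0.34.

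The difference between the conditions was tested directly as the interaction of genotype and sleep deprivation. No gene was called, 0 of 14161 or 0.0%. An unadjusted p below 0.05 was found at 141 genes (0.996%), and at 158 with edgeR, which also called 0. The 5 genes with the smallest p were Ldb3, Omd, Sult1a1, Aurka and Cdc42ep3. Ldb3, a muscle-type PDZ and LIM domain gene, read 113.8, 139.4, 148.8 and 157.8 in KO_SD and 151.9, 155.1, 148.3 and 181.3 in WT_SD, a log2 difference of -0.19, against 0.78 in undisturbed mice (interaction -0.97). Omd, an extracellular matrix gene, went from 1.07 in undisturbed mice to -1.10, at 6.17 to 19.6 normalized counts in KO_SD. Aurka, a mitotic kinase gene, went from -0.88 to 0.99 (interaction SE 0.53), at 24.7 to 36.9 normalized counts in KO_SD and 6.66 to 23.0 in WT_SD. Cdc42ep3, which encodes an effector of Cdc42, went from -0.26 to 0.24.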

How the data were processed

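Extraction used a column kit with DNase I, per the labels' protocols, and the notes of the submitters on processing list RSEM 1.2.19, edgeR, mm10 and GRCm38 with no role. Of the 4 deposited sheets the first and the fourth were used, each with its own scaling. The factor of the same undisturbed library differed by at most 0.23% between them. The authors' normalized counts are a signal, counts over a library factor, as the column names and whole steps show. KO_SD and WT_SD came from the fourth sheet and KO_BL and WT_BL from the first. FPKM values, the log2 ratio (wild type over knockout), its p-value and false discovery rate, gene length and GC fraction are the authors', as deposited. A further 96 per-sample columns were not used here.

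Dividing by a library's step gave whole reads for 100% of values up to 20 reads, within 0.1 read. Genes were tested with limma 3.58.1 (R 4.3.3), trend and robust, on log2(normalized count + 1), as a two-sided test adjusted over all tested genes by Benjamini-Hochberg at 0.05. This scale understates differences of low genes. Genotype fits held their own 8 libraries, and the interaction fit all 16. Alternatives were other scalings, pseudocounts and filters, limma-voom, edgeR 4.0.16 and DESeq2 1.42.0 on recovered reads, no trend or robust step, array weights, list scores as covariates, 1 model of all libraries, the replicate block and leaving out libraries. Replicate pairs differed by a chi-square of at least 7.94 per degree of freedom, so none was a duplicate. The fit functions were also run on simulated counts, whose outcome is not given here and on which no result rests.

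The members, the 33 gene lists and the naming rule were chosen with earlier results of these data known. The rule took the BK subunits, 12 genes a side by smallest p, up to 4 per list, 5 of the interaction, those within 5 Mb of Kcnma1 with p below 0.05, and the ends of component 1, from which only Kcna2 is given. A rule-named gene is not reported here. List scores are mean log2 deviations from the average of 8 libraries. GENCODE M21 on GRCm38 matched 22570 of 22880 identifiers.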

Additional observations from a re-analysis of the deposited data

Results flagged for a closer look

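Single libraries that lay far from the other 3 of their group were looked for with Dixon's test at the 95% level in 278 groups of 4 values, and 16 were found, where chance alone gives about 1 in 20. In KO_SD the high library was KO_SD 4 for Dnajb6 (1051 normalized counts), Calm2 (47480), Dcn (663.4), Gfap (3318) and Ddn (18070), and KO_SD 2 for Omd (19.64) and for recovered reads (30.5 M). In WT_SD the odd library was WT_SD 4 for Scn4b (2977), Ttr (5430), Adcyap1 (245.6, low) and Ddn (16240, low). It was WT_SD 3 for Scg2 (6882) and Col3a1 (1204, low), and WT_SD 1 for Cacna1c (1941), Coch (489, low) and Elk1 (1507, low).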

How the results depend on the processing

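The count of called genes stayed at 0 after sleep deprivation under all 24 alternatives and at 0 for the interaction under all 21. The lowest adjusted p, 0.0555, came with limma array weights. The number with an unadjusted p below 0.05 was 399 with no filter, 1574 with array weights, 148 with list scores as covariates, 596 without KO_SD 1 and KO_SD 4, and 127 to 482 with 1 library left out. The labels do not say whether replicate numbers pair the mice. Within-group deviations of same-numbered KO_SD and WT_SD libraries had correlations of 0.355, 0.064, 0.017 and -0.421, which cannot decide it. With the replicate block 0 genes were called after sleep deprivation (268 unadjusted), 2 in undisturbed mice and 0 for the interaction. In undisturbed mice the unadjusted count was 817 with the block and 395 without it. In undisturbed mice edgeR called 1 gene, and leaving out 1 library gave 0 to 3.

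Of 2466 alternative values for 103 named genes, 22 had the other sign, in 9 genes, and the cause was not tested. Many of these genes were picked in these same libraries for groups that do not overlap or for a small p. That choice limits changes of sign, so the count does not measure how stable the directions are. With 1 library left out the log2 difference ran from -0.56 to 0.18 for Kcnma1, from -0.16 to 0.11 for Kcnmb2, from -0.0877 to 0.21 for Kcnmb4, from -0.32 to 0.0344 for Cacna1b, from -0.35 to 0.0434 for Cacna1c, from -0.0544 to 0.35 for Rps24 and from -0.91 to 0.39 for Kcna2. Kcnmb2 was at 0.0438 with quantile scaling and 0.17 with array weights. Array weights gave 0.32 for Ttr and 0.0588 for Kcna2, and covariates gave -0.10 for Kcnmb4 and 0.0199 for Kcnn2. Kcna2 was at 0.0338 with edgeR and 0.0434 with DESeq2.

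Of 768 alternative list medians 8 moved by more than the spread between libraries. They were heat shock proteins (-0.02) and oligodendrocyte precursor markers (-0.02) without KO_SD 1 and KO_SD 4, hippocampal markers with covariates (0.07), thalamic markers with array weights (0.06), cortical layer markers without KO_SD 4 (0.13), interneuron markers without WT_SD 1 (0.02), and astrocyte (-0.18) and precursor (-0.02) markers without KO_SD 1. The hippocampal move was fixed in advance, because that covariate is the score of the same markers. Depth was 14.3 to 30.5 M recovered reads per library.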
